A study of Homo sapiens with 2 samples.

Results

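The 10 circadian clock genes PER1, PER2, PER3, CRY1, CRY2, CLOCK, ARNTL, NR1D1, NR1D2 and DBP were taken by symbol from a table of 44591 genes, of which 19840 had at least 10 reads summed over both libraries and were kept. All 10 clock genes were found once and all 10 were kept, the lowest being PER3 with 452 reads. RNA was sequenced from HSC-1, an established human cell line of cutaneous squamous cell carcinoma, after transfection with a control siRNA (siNC) or an siRNA against the long non-coding RNA LINP1 (siLINP1). There was 1 library per condition. Per the labels, both cultures were transfected at about 70% confluency, kept for 6 h in medium without serum, then changed to medium with 10% serum and grown for another 24 h. The methods of the study describe another confluency and another time of harvest, and the siLINP1 oligonucleotide behind the library is not named in the sources used here. Since each condition was sampled once, at 1 time, no spread between cultures and no rhythm could be measured, no p-value is given, and a shift in the timing of a rhythm cannot be told apart from a change in its level. In bulk RNA, fewer cells that express a gene and less RNA per cell cannot be told apart either.

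The siNC library held 18829544 counted reads on 26757 genes and the siLINP1 library 15383081 reads on 26898 genes. LINP1, the targeted gene, had 167 reads in siNC and 23 in siLINP1, for a log2 fold change (siLINP1 over siNC, on counts scaled between the libraries by median-of-ratios size factors) of −2.65, with a 95% interval of −3.35 to −2.02. All intervals cover counting error only. Of the 10 keratinocyte markers examined, some that define the lineage were near 0 in both libraries, with 32 and 24 reads for KRT5, 6 and 8 for TP63, 14 and 3 for CDH1 and 5 and 5 for DSG3. KRT14 had 243 and 87 reads (log2 fold change −1.27, interval −1.64 to −0.91), and ITGB4 (5990 and 3962 reads) was abundant. The remaining keratinocyte markers were ITGA6 (4677 and 5058 reads), PERP (1158 and 1398), DSP (699 and 512) and SFN (264 and 138). Of the mesenchymal markers, VIM (61097 and 41992 reads) and SPARC (34148 and 21107) were abundant. FN1 had 1151 and 753 reads, CDH2 1862 and 1092 and ZEB1 697 and 883. The median log2 fold change was −0.22 over the 10 keratinocyte markers and −0.40 over the 5 mesenchymal markers. Of the 10 keratinocyte markers, 2 (KRT14 and CDH1) were more than 2-fold lower (5.3% of all genes kept) and 0 more than 2-fold higher (6.74%). The interval of CDH1 was −4.45 to −0.17, and the intervals of both genes reached inside 2-fold. The part of cell identity in the values of the clock genes was not tested.

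The circadian clock is a transcriptional feedback loop present in most cells, skin cells included. CLOCK and ARNTL (BMAL1) form a dimer that binds E-box sequences and activates the PER and CRY genes, whose proteins return to the nucleus and repress the dimer. The same dimer activates NR1D1 and NR1D2, which encode the REV-ERB receptors and repress ARNTL at ROR elements, and DBP, which activates genes through D-boxes. In cultured cells serum and glucocorticoids are known to reset this loop.

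Promoter sequence is shown for PER1, PER2, CRY1, CRY2, NR1D1 and NR1D2, the members near or above 2-fold in the comparison that follows. That of CIART, a repressor of the same loop, is shown too. Each stretch was placed around a match to a sequence that CLOCK and ARNTL are known to bind, and windows without a match are not shown. That every stretch holds a match therefore follows from this choice, and binding was not measured. For CRY2 and NR1D2 the match lies only in the window of the second annotated start. CLOCK also held a match and is not shown. All 10 members matched a RefSeq promoter window of GRCh38.p14 (250 bases before to 50 after an annotated start), ARNTL under the symbol BMAL1, and 16 of 19 related clock genes matched. The windows were searched on both strands for the E-box CACGTG, the E-prime box CACGTT, the D-box (TTATGTAA, TTACGTAA, TTATATAA or TTACATAA), the ROR element core AGGTCA and the cAMP response element TGACGTCA. None of these motifs contains another, and no matches in the members overlapped. They were chosen with the expression values known, so the counts are a description without a test. The stretches were placed by exact match in GRCh37, the build of the files, and capitals mark the E-box or the E-prime box, the latter in some stretches as AACGTG on the printed strand. The stretch of PER1 lies on chr17:8055853-8055932 on the minus strand, upstream of the gene start in the table. It overlaps annotated transcripts of PER1 and of another gene, and no annotated exon. PER2 (chr2:239197431-239197460, minus strand) and CRY2 (chr11:45868826-45868855, plus strand) fall in an annotated exon of their own gene, and only 30 bases of each are given. That of CRY1 (chr12:107487399-107487428, minus strand), also of 30 bases, is inside the gene span of the table and outside annotated exons. It overlaps an annotated transcript of another gene. NR1D1 lies on chr17:38256968-38257047 (minus strand, reaching into the gene span of the table), NR1D2 on chr3:23987445-23987524 (plus strand, outside exons and within transcripts of NR1D2 and NKIRAS1) and CIART on chr1:150254835-150254914 (plus strand).
PER1: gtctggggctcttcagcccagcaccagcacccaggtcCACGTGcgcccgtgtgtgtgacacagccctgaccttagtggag
PER2: ggcgcgcgcggtCACGTTttccactatgtg
CRY1: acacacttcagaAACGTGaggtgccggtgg
CRY2: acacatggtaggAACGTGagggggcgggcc
NR1D1: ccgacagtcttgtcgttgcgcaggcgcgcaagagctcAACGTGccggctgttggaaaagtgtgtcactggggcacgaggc
NR1D2: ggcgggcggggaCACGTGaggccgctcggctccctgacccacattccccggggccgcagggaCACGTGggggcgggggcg
CIART: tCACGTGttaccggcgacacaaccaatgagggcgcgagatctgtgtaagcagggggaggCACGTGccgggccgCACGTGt

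An E-box was found in the windows of 2 of 10 members, PER1 and NR1D2, against 8.77% of 27305 genes with a window. An E-prime box was found in 5 members (PER2, CRY1, CRY2, CLOCK and NR1D1) against 6.44% of genes, so that 7 of 10 members held either box against 14.5%. CLOCK, whose level hardly differed between the libraries, was among these 7, and PER3, ARNTL and DBP held neither within these windows. A D-box was found in PER2, PER3 and NR1D2 (3 of 10 against 1.79% of genes) and the ROR element core in PER1, CRY2 and ARNTL (3 of 10 against 16.5%). No member held the cAMP response element, which occurred in 2.25% of genes. Of the 16 related clock genes, 6 held an E-box (TEF, BHLHE40, BHLHE41, CIART, CIPC and TIMELESS), and CIART held 3. NR1D2 held 2, both in the window of its second annotated start. The E-prime boxes of CRY2 and CLOCK also lay only in the window of the second start. The shares of genes count a match in any window of a gene, and the number of windows differs between genes. By window, over 35116 windows, the shares were 7.26% for the E-box, 5.34% for the E-prime box, 12.2% for either, 1.43% for the D-box, 13.8% for the ROR element core and 1.85% for the cAMP response element.

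All 10 clock genes had a higher scaled count in siLINP1 than in siNC, although CLOCK by a log2 fold change of only 0.013. Of all genes, 9487 of the 19840 kept were higher, and 6237 of the 13336 with at least 100 reads. More than 2-fold higher were 5 of 10 (PER2, CRY1, CRY2, NR1D1 and NR1D2), against 6.74% of the 19840 genes kept and, among the 13336 genes with at least 100 reads, as every member has, 2.71%. None was more than 2-fold lower, against 5.3% and 1.11% of the same genes. At 1.5-fold, 7 of 10 were higher (14.4% and 8.72% of all genes) and 0 were lower (13% and 6.77%). The median log2 fold change of the members was 1.02, against −0.023 over the genes kept and −0.029 over those with at least 100 reads. The whole interval lay above 2-fold for 3 members (PER2, CRY2 and NR1D1), against 1.41% of genes with at least 100 reads. PER1, 1.996-fold higher, was just outside the 2-fold threshold and NR1D2, 2.05-fold higher, just inside it. At 1.5-fold, PER3 at 1.59 was the nearest member inside and ARNTL at 1.46 the nearest outside.

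Among the PER genes, which encode the negative arm of the loop, PER2 differed most between the libraries and PER1 was by far the most abundant. PER1 (GRCh37 chr17:8043788-8055753, minus strand) had 2048 reads in siNC and 3536 in siLINP1, or 23.1 and 48.8 RPKM (reads scaled for gene length and for the library's total, the unit in which levels of different genes are compared here). Its level was higher in siLINP1 by a log2 fold change of 1.00, with an interval of 0.92 to 1.08. PER2 (chr2:239152679-239197207, minus strand) had 150 and 431 reads, or 1.26 and 4.42 RPKM. On scaled counts PER2 was 3.32-fold higher in siLINP1, a log2 fold change of 1.73 with an interval of 1.46 to 2.01. All folds and log2 fold changes are of scaled counts, and differ somewhat from ratios of RPKM, which uses the library's total. PER3 (chr1:7844489-7905241, plus strand) had 190 and 262 reads, or 1.58 and 2.67 RPKM, and was also higher in siLINP1, by a log2 fold change of 0.67 with an interval of 0.40 to 0.95. The 3 genes therefore differed in size, and in ratios taken within each library, which do not depend on the scaling between libraries, PER2 over PER3 went from 0.795 to 1.66, a log2 change of 1.06 with an interval of 0.68 to 1.44. The ratio of PER1 over PER2 went from 18.4 to 11.0, a log2 change of −0.73 with an interval of −1.01 to −0.46. PER1 made up 89.1% of the summed PER RPKM in siNC and 87.3% in siLINP1, while the share of PER2 was 4.84% and 7.90% and that of PER3 6.09% and 4.77%. PER1 holds the microRNA gene MIR6883, which had 4 reads in each library, and the transcripts on the opposite strand of PER2 and PER3 had at most 5 reads in either.

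The cryptochromes CRY1 and CRY2, the PER partners that repress CLOCK and ARNTL, were both more than 2-fold higher in siLINP1. CRY1 (chr12:107385142-107487635, minus strand) had 350 reads in siNC and 685 in siLINP1, or 5.64 and 13.5 RPKM. The log2 fold change was 1.18, and its interval of 0.99 to 1.37 just reached below 2-fold. CRY2 (chr11:45868669-45904799, plus strand) had 235 and 496 reads, or 2.86 and 7.38 RPKM, with a log2 fold change of 1.29 and an interval of 1.06 to 1.52. The pair kept close to the same ratio, CRY1 over CRY2 being 1.97 in siNC and 1.83 in siLINP1, a log2 change of −0.11 with an interval of −0.40 to 0.18. Over the 5 PER and CRY genes the median log2 fold change was 1.18, and all 5 were more than 1.5-fold higher. Their summed level was 34.4 RPKM in siNC and 76.8 RPKM in siLINP1.

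The activators CLOCK and ARNTL had smaller log2 fold changes than any PER or CRY gene, although the intervals of ARNTL and PER3 overlapped. CLOCK (chr4:56294068-56413076, minus strand), a bHLH-PAS factor, had 888 reads in siNC and 775 in siLINP1, or 4.25 and 4.54 RPKM. On scaled counts the 2 libraries were nearly level, with a log2 fold change of 0.013 and an interval of −0.13 to 0.15. ARNTL (chr11:13299274-13408813, plus strand), its dimer partner, had 233 and 295 reads, or 4.24 and 6.57 RPKM. It was higher in siLINP1 by a log2 fold change of 0.55, with an interval of 0.30 to 0.80. NPAS2, a paralog that can take the place of CLOCK, was the most abundant activator, with 47.4 RPKM in siNC and 44.5 in siLINP1, and its log2 fold change was −0.17 (interval −0.25 to −0.10). ARNTL2, the paralog of ARNTL, was at 5.46 and 9.80 RPKM and was 1.70-fold higher in siLINP1 on scaled counts. The ratio of ARNTL over ARNTL2 went from 0.776 to 0.670, a log2 change of −0.21 with an interval of −0.49 to 0.069. The summed RPKM of the 4 activators was 61.4 in siNC and 65.4 in siLINP1, most of it NPAS2. Repressor over activator, as the summed RPKM of the PER and CRY genes over that of the 4 activators, was 0.561 in siNC and 1.17 in siLINP1. Over CLOCK and ARNTL alone it was 4.06 and 6.92.

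**Figure D1:**
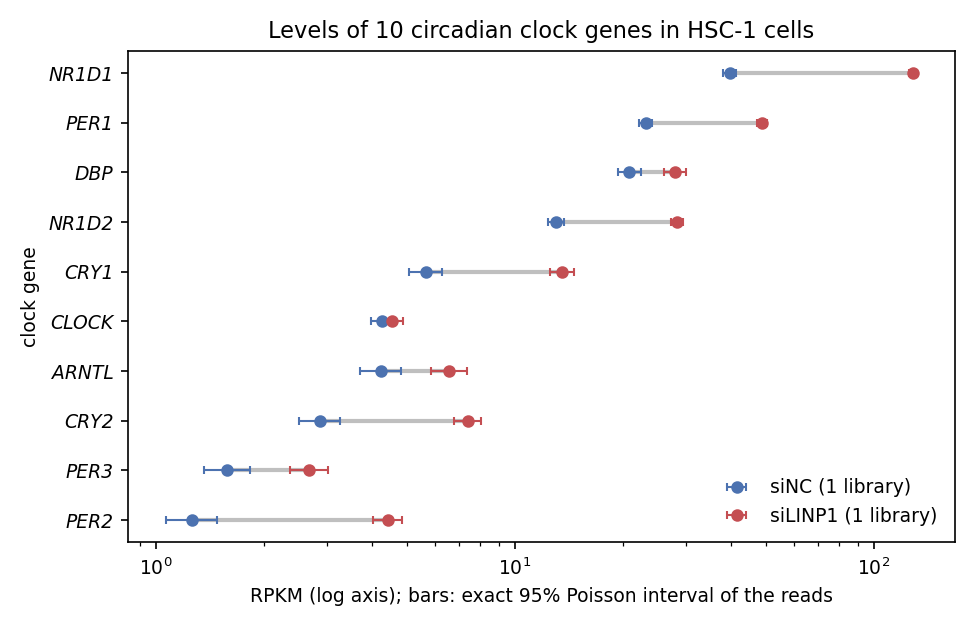
RPKM (log axis) of the 10 clock genes in the siNC library (blue) and the siLINP1 library (red), with exact 95% Poisson intervals of the reads as bars and 1 library per condition. NR1D1 has the highest level in both libraries (39.6 and 128 RPKM), and CLOCK is the only member whose intervals overlap between them.

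NR1D1 and NR1D2, which encode the heme-binding nuclear receptors REV-ERB alpha and beta, repressors of ARNTL, were also more than 2-fold higher in siLINP1. NR1D1 (chr17:38249037-38256978, minus strand) had 2070 reads in siNC and 5484 in siLINP1, or 39.6 and 128 RPKM, the highest level of any member in either library. Its log2 fold change was 1.62, with an interval of 1.54 to 1.69. NR1D2 (chr3:23986751-24022109, plus strand) had 1346 and 2391 reads, or 13.0 and 28.3 RPKM, with a log2 fold change of 1.04 and an interval of 0.94 to 1.14. The difference was larger for NR1D1, whose ratio over NR1D2 went from 3.05 to 4.54, a log2 change of 0.58 with an interval of 0.46 to 0.70. NR1D1 shares 1084 bases with THRA on the opposite strand, and the strand setting of the counting is not given in the sources used here. THRA, which encodes a thyroid hormone receptor, had 814 and 746 reads, with a log2 fold change of 0.084 and an interval of −0.062 to 0.23. ARNTL was also higher in siLINP1 (log2 fold change 0.55), and the ratio of NR1D1 over ARNTL went from 9.35 to 19.6. The part of the REV-ERB genes in the level of ARNTL was not tested.

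DBP is a PAR bZIP factor that binds D-boxes and a direct E-box target of CLOCK and ARNTL. It had a smaller log2 fold change than the PER, CRY and REV-ERB genes, although the intervals of DBP and PER3 overlapped. DBP (chr19:49133817-49140807, minus strand) had 710 reads in siNC and 776 in siLINP1, or 20.8 and 27.9 RPKM. On scaled counts DBP was 1.26-fold higher in siLINP1, a log2 fold change of 0.34 with an interval of 0.19 to 0.49. Its relatives TEF and HLF differed more, TEF with 326 and 597 reads (log2 fold change 1.08, interval 0.89 to 1.28) and HLF with 27 and 125 reads (2.42, interval 1.81 to 3.08). DBP over TEF accordingly went from 5.61 to 3.35, a log2 change of −0.74 with an interval of −0.99 to −0.50. NFIL3, a repressor at the same D-boxes, was 1.88-fold higher, with 427 and 694 reads.

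In order of RPKM, NR1D1 was the highest member in siNC, ahead of PER1 (23.1) and DBP (20.8), whose Poisson intervals overlap. NR1D2 (13.0) and CRY1 (5.64) came next, and CLOCK (4.25) and ARNTL (4.24) could not be ordered. CRY2 (2.86) stood above PER3 (1.58) and PER2 (1.26), whose intervals overlap. In siLINP1, NR1D1 was again first and PER1 second. NR1D2 (28.3) and DBP (27.9) had overlapping intervals, as had CRY2 (7.38) and ARNTL (6.57), and CLOCK (4.54) and PER2 (4.42). PER3 (2.67) was last. PER2 thus passed PER3, and CLOCK went from level with ARNTL to below it, the ratio of ARNTL over CLOCK being 0.998 in siNC and 1.45 in siLINP1 (log2 change 0.54, interval 0.25 to 0.82). Measured against CLOCK within each library, NR1D1 went from 9.33 to 28.3 and PER2 from 0.296 to 0.974.

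Of the 19 related clock genes, 18 were kept, FBXL21 (4 and 2 reads) being under the minimum. In siLINP1, 11 were higher and 7 lower in value, against 9487 and 10350 of the 19840 genes kept. More than 2-fold higher were 6 (6.74% of all genes kept) and more than 2-fold lower 0 (5.3%). The median log2 fold change was 0.16. At 1.5-fold, 8 were higher (14.4% of all genes kept) and 0 lower (13%). The 6 were TEF, HLF, RORB and 3 repressors that act at E-boxes, BHLHE40, BHLHE41 and CIART. BHLHE40 (DEC1) had 953 reads in siNC and 1745 in siLINP1, with a log2 fold change of 1.08 and an interval of 0.97 to 1.20. BHLHE41 (DEC2) had 294 and 778 reads, with a log2 fold change of 1.61 and an interval of 1.42 to 1.81. CIART, which carries 3 E-boxes in the stretch printed above, had 7 and 34 reads, and its log2 fold change of 2.49 came with a wide interval of 1.29 to 3.91. CIPC, another repressor of CLOCK with an E-box in its window, did not follow them, with 210 and 172 reads and a log2 fold change of −0.079 (interval −0.38 to 0.22). RORA and RORB encode receptors that activate ARNTL at the elements that REV-ERB represses, and both were at low levels: RORB had 52 and 90 reads (log2 fold change 1.00, interval 0.49 to 1.52, and 0.98 with upper-quartile scaling, under 2-fold) and RORA 182 and 117 reads (−0.43, interval −0.78 to −0.085). TIMELESS, which in mammals serves mainly in DNA replication, had a log2 fold change of −0.26. None of the 6 kinases and ubiquitin enzymes that set the turnover of PER and CRY proteins (CSNK1D, CSNK1E, GSK3B, BTRC, FBXW11 and USP2) was past 1.5-fold, with log2 fold changes from −0.53 (USP2) to 0.21 (BTRC) and a median of 0.0042.

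**Figure D2:**
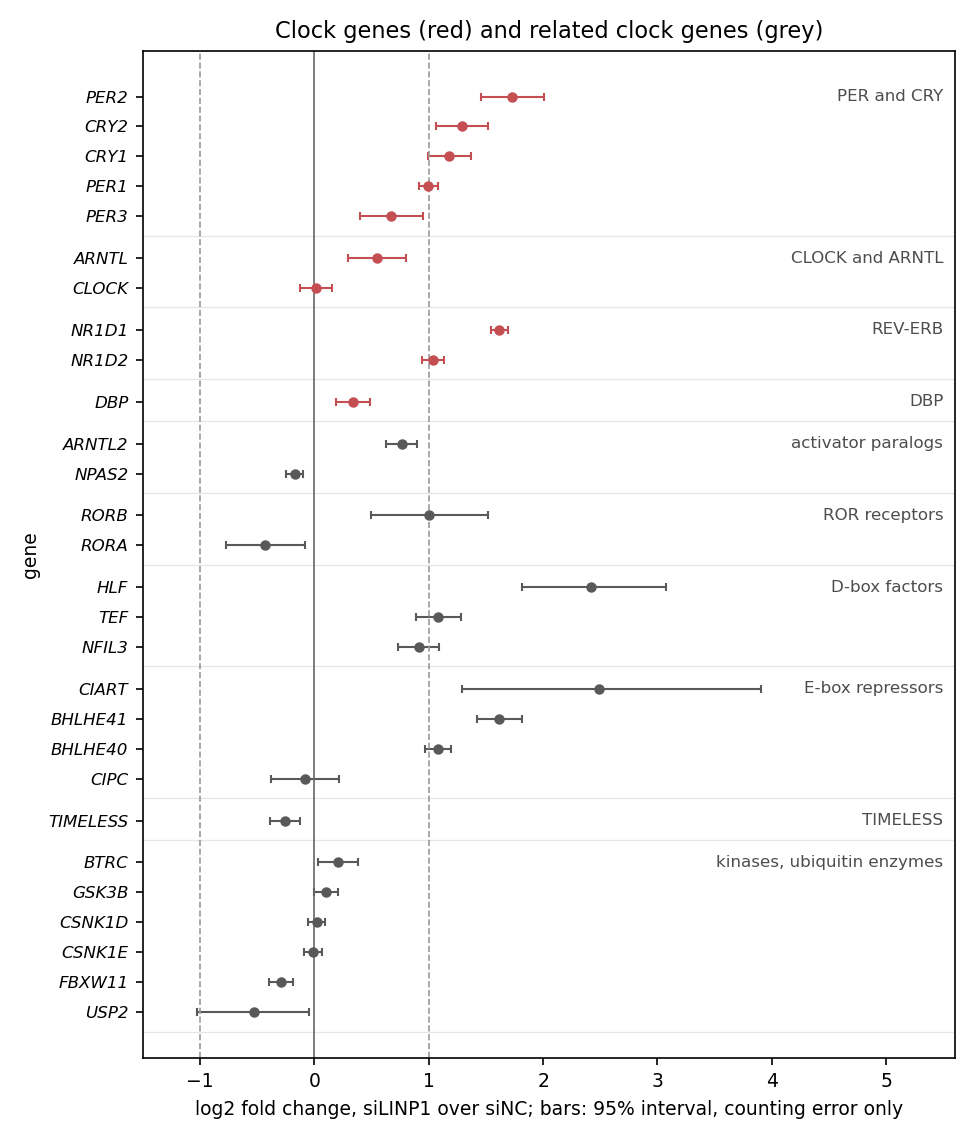
Log2 fold change (siLINP1 over siNC) of the 10 clock genes (red) and the 18 related clock genes kept (grey), grouped by role, with 95% intervals of counting error as bars; the solid line is 0 and dashed lines are 2-fold. Both CRY and both REV-ERB genes, PER1, PER2, RORB, TEF, HLF, NFIL3 and 3 of 4 E-box repressors lie near or above 2-fold. PER3 lies at 0.67 and DBP at 0.34. CLOCK, NPAS2 and the kinases and ubiquitin enzymes lie within 1.5-fold of no change, from −0.53 to 0.21.

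Genes downstream of the clock and genes through which serum and hormones act on it were examined beside the members. All 5 clock outputs were higher in siLINP1 in value, against 9487 of the 19840 genes kept. Of the 5, 2 were higher by more than 2-fold (6.74% of all genes kept), and the median log2 fold change was 0.50. NOCT, which encodes nocturnin, a protein of the deadenylase family, had 478 reads in siNC and 1665 in siLINP1 (log2 fold change 2.01, interval 1.86 to 2.16). KLF10, a zinc-finger factor under clock control, had 1653 and 4177 reads (1.55, interval 1.46 to 1.63). WEE1 (0.22), NAMPT (0.42) and PPARA (0.50) differed less. Of the 12 clock inputs, 2 were more than 2-fold higher (6.74% of all genes kept) and 0 more than 2-fold lower (5.3%), with a median of 0.26. At 1.5-fold, 4 were higher (14.4%), the other two being DUSP1 (log2 fold change 0.92) and NR3C1 (0.78), and 0 were lower (13%). The 2 above 2-fold were immediate early genes of the serum and cAMP response, FOS with 112 and 500 reads (log2 fold change 2.37, interval 2.07 to 2.68) and EGR1 with 1874 and 12466 reads (2.94, interval 2.87 to 3.01). All 7 serum and cAMP genes were higher in siLINP1 in value (9487 of the 19840 genes kept), with a median of 0.35. The 5 glucocorticoid genes had a median of 0.086, among them the receptor NR3C1 (0.78) and the targets TSC22D3 (−0.033), FKBP5 (0.22), SGK1 (0.086) and KLF9 (−0.33). The part of these inputs in the values of the clock genes was not tested.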

How the data were processed

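Total RNA of the siNC and siLINP1 cultures was sequenced on an Illumina instrument. Alignment by the authors was to GRCh37/hg19, using Tophat2, and reads on each gene were counted by HTSeq. The submitters' processing notes also name HISAT2, HISAT and Bowtie2, without a role. Versions, the annotation and the counting mode are not given in the sources used here. The deposited counts are raw reads on each gene. The RPKM values of the same table, made by the authors, divide each count by the table's gene length in kilobases and by the counted reads of the library, both as the unit defines. The table also holds 12 columns of per-sample values that were not used here.

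Size factors by the median-of-ratios method were 1.08 for siNC and 0.930 for siLINP1, and a gene was kept if both libraries together gave at least 10 reads. No pseudocount entered the log2 fold change of scaled counts. A 95% interval was had from the Clopper-Pearson limits on the split of a gene's reads between the libraries, RPKM carries an exact Poisson interval, and the log2 change of a ratio of 2 genes carries the normal interval of the log odds ratio. All of these cover counting error only, with a median interval of ± 0.17 on the log2 scale for the members. A related clock gene, clock output or clock input with at most 3 reads in both libraries was left out of the counts and medians of its list. The counts over all genes had no such floor and include genes with 0 reads in 1 library. With 1 library per condition no test between conditions was made, and "called" means past 2-fold or 1.5-fold. The named genes were all 10 members, the related clock genes, clock outputs and clock inputs past 2-fold, direct paralogs of members, overlapping genes and LINP1. Members and lists were chosen with earlier results of these data known, and some further genes of the same lists (among them CIPC, RORA, TIMELESS, USP2, DUSP1, the markers and the clock outputs and glucocorticoid genes below 2-fold) were chosen to be named with their values in view. Some genes considered for the related clock list were left out of it and are not reported here. Promoter windows came from RefSeq (GRCh38.p14) and were placed in GRCh37 by exact match, with exons from GENCODE v44lift37. The alternatives were total count, edgeR TMM and upper-quartile scaling, scaling on protein-coding genes, a minimum of 1 or 100 reads, pseudocounts of 1 and 5, the whole interval past the fold, and members without an overlapping gene. The calculations were tested on simulated counts. The tools were R 4.3.3 with edgeR 4.0.16 (normalization factors only) and Python 3.11.15 with matplotlib 3.10.9, scipy 1.17.1, pandas 2.3.3 and numpy 2.4.6.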

Additional observations from a re-analysis of the deposited data

How the results depend on the processing

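The 9 members other than CLOCK were higher in siLINP1 under every alternative, while the log2 fold change of CLOCK ranged from −0.0061 (upper-quartile scaling) to 0.095 (total count). Another scaling shifted every log2 fold change by 0.082 (total count), 0.028 (TMM), −0.019 (upper quartile) or 0.032 (protein-coding genes), which placed PER1 above 2-fold under total count (1.08), TMM and protein-coding scaling, so that 6 members were past it. Under total count ARNTL (0.63) also passed 1.5-fold, so that 8 members were past that threshold. With the whole interval past the fold, 3 members and 3 related clock genes were more than 2-fold higher. Without the 5 members that overlap another gene, 2 members were more than 2-fold and 2 more than 1.5-fold higher, with a median log2 fold change of 0.55. The 5 left were CRY2, CLOCK, ARNTL, NR1D2 and DBP, among them the 3 lowest of the 10. RORB, at the threshold, was under 2-fold with upper-quartile scaling (0.98) and pseudocounts of 1 (0.99) and 5 (0.93), which left 5 related clock genes past it. A minimum of 100 reads also left 5, without CIART. With a minimum of 1 read, 1 related clock gene (FBXL21, 4 and 2 reads) was more than 1.5-fold lower. Over all genes, those more than 2-fold higher and lower numbered 5179 and 4399 with a minimum of 1 read, 362 and 148 with a minimum of 100 reads, 824 and 510 with a pseudocount of 5, and 316 and 85 by whole intervals. At 1.5-fold these were 7048 and 6456 with a minimum of 1 read, 1163 and 903 with 100 reads, and 790 and 409 by whole intervals. No paired analysis was possible because each condition has 1 library. No replicate could be left out either, so the spread between cultures, which may exceed the counting error, was not measured for any value.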
